A study of Rattus norvegicus with 110 samples.

Results

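Solute carrier proteins move amino acids, vitamins, metals, nucleosides, phosphate and other small molecules across the membranes of cells and organelles, and the liver uses them to take up, store and release nutrients. The genes described here are the 23 genes whose symbols start with Slc or Slco in the gene lists that accompany the study, out of 31998 gene identifiers in the count tables and 1568 genes to which those lists give a symbol. Slc10a2, the ileal bile acid transporter, was left out by the rule. The members were thus chosen by a measured difference in these samples: 22 of the 23 were listed by the study for an effect of the treated F0 grandsire in the same livers and 1, Slc39a14, for that effect in the same kidneys. The F0 difference in the organ for which a gene was listed is therefore given below as a description without a test, whereas the dose and F1 differences were not used to choose the genes. The liver list also required a mean normalised count over 50 in liver, so its 22 genes had to be expressed there, which bears on the comparison of organs.

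Liver RNA came from 83 F2 male Sprague Dawley rats and kidney RNA from the 27 of them that had received vehicle. The males were dosed by oral gavage 3 times per week from an age of 9 to 11 weeks, at 0.5 mL/kg, with olive oil alone (vehicle), 8% CCl4 in olive oil (low dose) or 50% CCl4 in olive oil (high dose), and tissue was taken after 39 days. Carbon tetrachloride is turned by cytochrome P450 enzymes into radicals that kill hepatocytes around the central veins, and repeated dosing causes fibrosis. Cohort A had no treated ancestor, cohort B a treated F1 sire, cohort C a treated F0 grandsire and cohort D both, the treated ancestors having received 50% CCl4 for 6 weeks with 2 weeks of recovery before mating. Each group of cohort and dose held 7 males, except the vehicle group of cohort C with 6. The rats are outbred, were sampled on 4 necropsy dates and come from 34 litters of 17 F0 sires, so males of a cohort share sires and litters. A liver library held 31638559 to 51343589 counts and a kidney library 21961746 to 35055218. One vehicle liver of cohort C stood apart on the first principal component of the vehicle livers (score -41.57, against -12.24 to 14.28 for the others), and results that change without it are named.

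Few genes of the marker lists had a symbol (2 of 8 for hepatocytes, 2 of 5 for macrophages, 1 of 4 for endothelium and 1 of 6 for kidney tubule), and all of them had been listed by the study on these samples. Tat, a hepatocyte amino acid enzyme, had a median of 296.13 TPM (counts divided by transcript length and scaled to a common library total) in vehicle liver and 0.12 in kidney. Cyp1a2, a hepatocyte cytochrome P450, was at a median of 208.93 TPM in vehicle liver and had a median of 0 in kidney. Lrp2, the endocytic receptor megalin of the proximal tubule, was at 302.26 TPM in kidney and 1.03 in vehicle liver. These 3 genes lay in the organ that the labels give.

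Promoter sequences of the members the results turn on are shown first, as annotated windows around transcription starts. RefSeq's promoter table on the build GRCr8 held 17 of the 23 symbols, with 19 starts among 33469, each window reaching from 250 bases before the start to 50 bases into the transcript. Slc1a2 and Slc19a2 are shown because they fell strongly at the high dose, and Slc45a3 and Slc38a2 because they were high in the same few livers. Slc1a2 has another annotated start (chr3:109507697-109507996, plus strand, 46.3% GC, 0 of the searched motifs), which is not printed, and which start the liver uses was not tested. Capitals mark the motifs searched on both strands.
Slc1a2, chr3:109459859-109460158, strand plus: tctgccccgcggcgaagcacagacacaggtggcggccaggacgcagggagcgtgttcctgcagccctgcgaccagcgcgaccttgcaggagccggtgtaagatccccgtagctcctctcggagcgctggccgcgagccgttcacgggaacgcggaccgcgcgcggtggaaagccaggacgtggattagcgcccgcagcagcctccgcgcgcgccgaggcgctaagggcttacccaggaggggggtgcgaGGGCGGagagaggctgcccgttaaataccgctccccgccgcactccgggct
Slc19a2, chr13:79134868-79135167, strand plus: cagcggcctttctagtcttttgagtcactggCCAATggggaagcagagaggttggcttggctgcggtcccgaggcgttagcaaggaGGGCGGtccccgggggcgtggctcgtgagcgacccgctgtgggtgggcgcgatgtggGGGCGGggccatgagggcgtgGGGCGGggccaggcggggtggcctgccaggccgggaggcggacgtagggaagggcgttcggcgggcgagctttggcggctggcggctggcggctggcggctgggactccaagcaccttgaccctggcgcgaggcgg
Slc45a3, chr13:45959217-45959516, strand plus: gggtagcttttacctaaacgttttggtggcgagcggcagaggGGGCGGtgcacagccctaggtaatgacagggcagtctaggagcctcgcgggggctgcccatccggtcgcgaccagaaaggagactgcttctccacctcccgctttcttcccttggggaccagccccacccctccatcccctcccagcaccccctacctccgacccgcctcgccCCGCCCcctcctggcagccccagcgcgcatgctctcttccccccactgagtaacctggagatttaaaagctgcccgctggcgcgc
Slc38a2, chr7:129742570-129742869, strand minus: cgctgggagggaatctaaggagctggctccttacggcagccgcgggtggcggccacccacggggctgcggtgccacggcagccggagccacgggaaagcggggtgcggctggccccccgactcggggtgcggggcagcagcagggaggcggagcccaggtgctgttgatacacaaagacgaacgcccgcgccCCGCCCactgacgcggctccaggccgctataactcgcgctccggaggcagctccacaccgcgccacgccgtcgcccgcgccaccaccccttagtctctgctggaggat
The capitals in these 4 windows are GC boxes (GGGCGG, or CCGCCC on the other strand), apart from the CCAAT box near the left end of the Slc19a2 window. GC boxes were in 13 of the 19 member windows and in 33.1% of all windows, and CCAAT in 8 of 19 and in 37.5%. The E-box CACGTG was in 4 of the 19 windows (those of Slc12a7, Slc25a33, Slc25a48 and Slc30a5) and in 6.42% of all. TATAAA was found at 1 of the 2 starts of Slc25a48 and in 14.2% of all windows. The amino acid response element TGATGCAA, the D-box TTATGTAA, the palindromic glucocorticoid response element and the HNF1 palindrome were in 0 of the 19 windows, and in 0.795%, 0.893%, 0.0149% and 0.00299% of all. No searched motif contains another. The member windows had a median GC content of 67.0%, against 51.7% over all windows, with the lowest at a start of Slc25a48 (42.7%) and the highest at Slc19a2 and Slc25a33 (72.7%). These matches describe letters in the windows and were not tested for binding.

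The first question was how the members responded to CCl4 itself. At the high dose, 6 of the 23 members were called lower than in vehicle liver and 0 higher, where a called gene had an adjusted p under 0.1 together with a log2 fold change past 1 in either direction. Over all genes tested, 25.3% were called, 18.5% higher and 6.73% lower, so the share of members called was near that of all genes. The members that fell were Slc1a2, Slc25a48, Slc19a2, Slco5a1, Slc45a3 and Slc9a3r1. Without the fold threshold, 22 of the 23 passed the adjusted p, 8 higher and 14 lower, against 72.2% of all genes, 37.8% higher and 34.4% lower. The median log2 fold change was -0.21 over the members and 0.01 over all genes, and the median absolute change was 0.48 and 0.49.

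These values are relative to TMM scaling, which centres most genes near 0. Scaled instead to the library total, the median of all genes at the high dose was 0.62 on the log2 scale. On that scale 14 members were higher and 7 lower at an adjusted p under 0.1, against 81.9% of all genes, 73.1% higher and 8.78% lower. Past the fold threshold 6 members were higher and 3 lower (Slc1a2, Slc25a48 and Slc19a2), against 32.7% and 2.34% of all genes. The estimates of 7 members changed sign between the scales (Slc12a7, Slc15a4, Slc25a33, Slc25a35, Slc34a2, Slc38a2 and Slc39a14). Below, "rose" and "fell" are relative to the TMM scale, and the members whose sign depends on the scale are given by value.

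**Figure D1:**
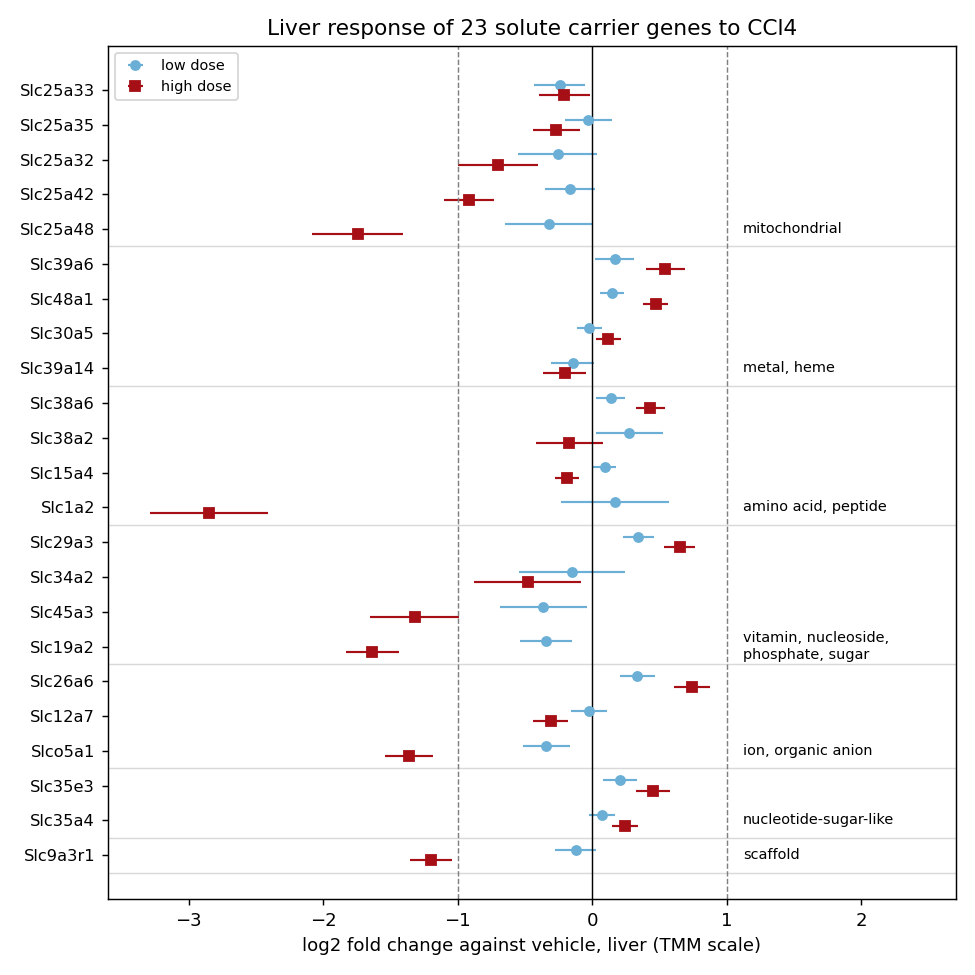
Log2 fold change against vehicle (x axis, TMM scale) of each member in liver at the low dose (circles) and the high dose (squares), with 95% intervals from the fitted standard errors, ordered by role. Dashed lines mark an absolute log2 fold change of 1, which 6 members passed at the high dose, all to the left, and 0 at the low dose.

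Slc1a2, the sodium-dependent glutamate transporter that perivenous hepatocytes use to take up glutamate, had the largest fall. It was between 85.3 and 463.6 normalised counts (median 243.9) in the 27 vehicle livers and between 125.4 and 448.9 (median 270.4) in the 28 low-dose livers. In the 28 high-dose livers it was between 4.8 and 130.7, with a median of 25.3. All but 3 high-dose livers lay below the lowest vehicle liver, and the low-dose and vehicle ranges overlapped. The fitted high-dose difference was -2.85 ± 0.22 on the log2 scale (SE), a 7.21-fold reduction (adjusted p = 3.05e-19), and the low-dose difference was 0.17 ± 0.20 (adjusted p = 0.62). Between the low and the high dose the difference was -3.02 ± 0.22; this contrast shares the high-dose livers with the one against vehicle. Within cohorts the high-dose difference was -2.48 in A, -2.91 in B, -3.20 in C and -2.80 in D, each called, and within the 4 necropsy dates it was between -3.92 and -2.34. The average transcript length assigned to Slc1a2 in vehicle liver was 732 bases.

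Glul, the glutamine synthetase of the same perivenous hepatocytes and the single gene of the amino acid transport list with a symbol (1 of 14), followed another order of doses. Its log2 fold change was -1.07 ± 0.10 at the low dose (adjusted p = 1.64e-15) and -0.33 ± 0.09 at the high dose (adjusted p = 0.0015). The lowest medians of Slc1a2 and Glul were thus at different doses.

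Slc25a48, a mitochondrial carrier linked to choline import, was the second member by size of its fall. Its normalised counts were 141.4 to 326.5 (median 251.7) in vehicle livers, 65.6 to 359.8 (median 211.0) at the low dose and 13.6 to 224.9 (median 64.2) at the high dose. Of the 28 high-dose livers, 25 lay below the lowest vehicle liver. The high-dose difference was -1.74 ± 0.17 (adjusted p = 1.18e-14), and the low-dose difference of -0.32 ± 0.17 did not pass (adjusted p = 0.17). Its spread between livers of one group was wide, with a pooled standard deviation of 0.68 on the log2 scale against 0.19 in kidney.

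Slc19a2, the high-affinity thiamine transporter, was at 3599.6 to 6607.8 normalised counts (median 5264.2) in vehicle livers, 1904.2 to 5903.3 (median 4383.2) at the low dose and 698.1 to 3928.0 (median 1527.9) at the high dose. A single high-dose liver, in cohort D, reached into the vehicle range. Slc19a2 fell at both doses, by 0.34 ± 0.10 at the low dose (adjusted p = 0.0060) and by 1.63 ± 0.10 at the high dose (adjusted p = 1.46e-24) on the log2 scale. The high-dose difference lay between -1.88 in cohort B and -1.51 in cohort C. Within the 4 necropsy dates it was between -1.77 and -1.58.

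Slco5a1, a little studied member of the organic anion transporting polypeptide family, was a low-count gene with 85.1 to 187.1 normalised counts (median 124.8) in vehicle livers. It was at 64.1 to 152.0 (median 103.4) at the low dose and 24.2 to 93.4 (median 46.4) at the high dose, where 26 of 28 livers were below the lowest vehicle liver. It fell at the low dose by 0.34 ± 0.09 (adjusted p = 0.0028) and at the high dose by 1.36 ± 0.09 (adjusted p = 1.89e-22). On library totals the low-dose difference was -0.17 and did not pass (adjusted p = 0.22). The step from low to high dose, -1.02 ± 0.09, was past the fold threshold in this fit and under it with DESeq2 (-0.98).

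Slc45a3, prostein, a sugar transporter relative, and Slc9a3r1, which encodes NHERF1 and is no transporter but a PDZ scaffold that anchors transporters at the apical membrane, completed the calls. Slc9a3r1 was at 2833.7 to 5181.2 normalised counts in vehicle livers and 1292.4 to 2460.5 at the high dose, the only member whose vehicle and high-dose ranges did not overlap, against 3.77% of all genes. Its difference was -1.20 ± 0.08 (adjusted p = 1.03e-22) at the high dose, and -0.12 ± 0.08 (adjusted p = 0.28) at the low dose. Slc45a3 was at 244.2 to 1669.2 normalised counts (median 493.1) in vehicle livers and 100.7 to 500.0 (median 212.2) at the high dose, with 18 of 28 high-dose livers below the lowest vehicle liver. It differed by -1.32 ± 0.17 at the high dose (adjusted p = 8.86e-11) and by -0.36 ± 0.16 at the low dose (adjusted p = 0.11). On library totals, Slc45a3 (-0.75), Slc9a3r1 (-0.59) and Slco5a1 (-0.73) remained lower but were under the fold threshold.

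**Figure D2:**
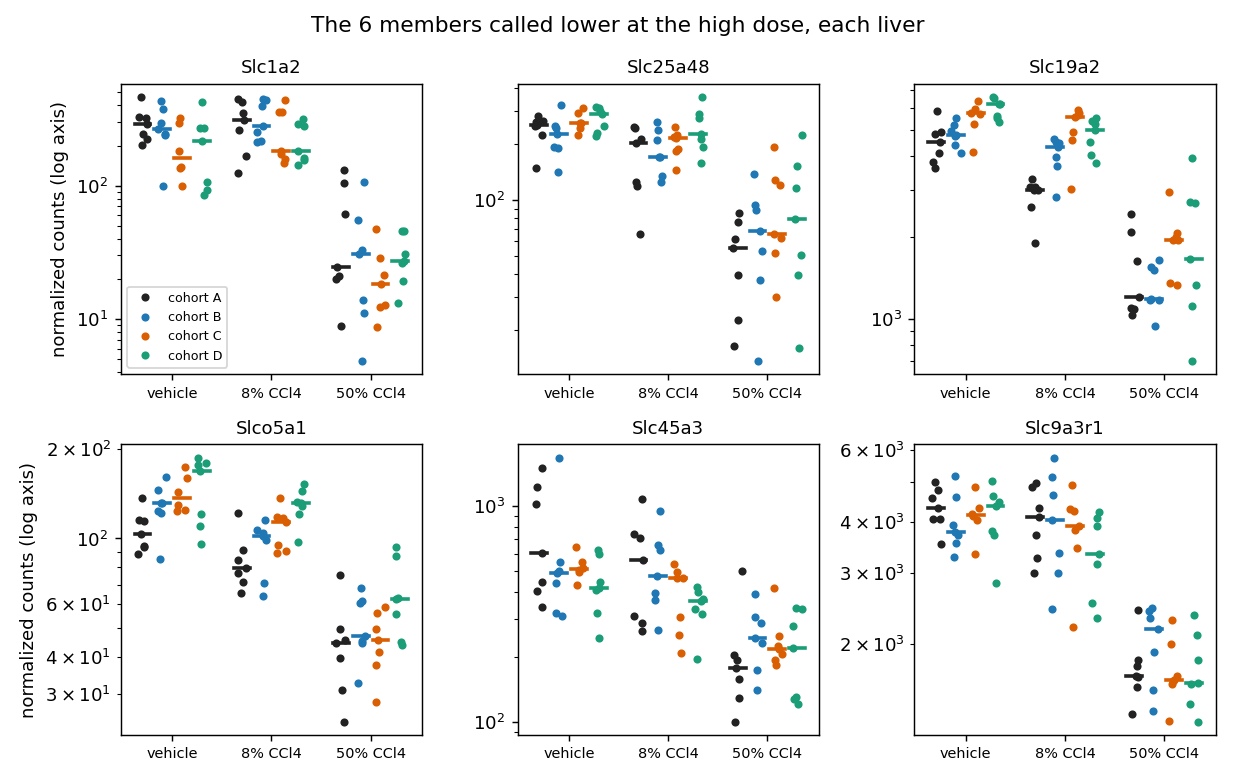
Normalised counts (log axis) of the 6 members called lower at the high dose, 1 point per liver, by dose and cohort, with a bar at the median of each group. The high-dose points of Slc9a3r1 all lie below its vehicle points, and 25 of 28 do so for Slc1a2 and for Slc25a48.

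In bulk RNA, fewer cells of a type and less RNA per cell cannot be told apart. Of the marker genes with a symbol, Cyp1a2 differed by -1.26 ± 0.19 at the high dose and Tat by -0.12 ± 0.19, both hepatocyte genes. Kdr, the endothelial VEGF receptor, differed by -1.05 ± 0.10, the macrophage genes Adgre1 and Cd163 by 0.39 ± 0.10 and 0.02 ± 0.10, and Lrp2 by 0.22 ± 0.12. Their part in the changes of the members was not tested.

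The 5 mitochondrial carriers among the members all had lower estimates at the high dose, where 34.4% of all genes were lower at an adjusted p under 0.1. Besides Slc25a48, Slc25a42, the carrier that brings coenzyme A into mitochondria, fell by 0.91 ± 0.09 and Slc25a32, the carrier for folate and flavin adenine dinucleotide, by 0.70 ± 0.15. Slc25a42 passed the fold threshold in cohorts B (-1.05) and D (-1.12). Slc25a33, a pyrimidine nucleotide carrier, was at -0.21 ± 0.10 and Slc25a35, a carrier with no settled substrate, at -0.27 ± 0.09, the 2 of the 5 whose sign turned on library totals. Without the liver that stood apart, Slc25a33 was at -0.13 and did not pass. With the litter as a block, neither Slc25a33 nor Slc25a35 passed. The estimate of Slc25a32 on library totals was -0.10 and did not pass.

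The metal and heme carriers among the members had mainly higher estimates, where 37.8% of all genes were higher at an adjusted p under 0.1. Slc39a6, the zinc importer ZIP6, rose by 0.54 ± 0.07 and Slc48a1, the HRG1 transporter that exports heme from lysosomes, by 0.47 ± 0.05, and the zinc transporter Slc30a5 of the secretory pathway rose by 0.12 ± 0.05. Slc39a14, the hepatocyte importer of zinc, manganese and non-transferrin-bound iron, was at -0.20 ± 0.08. Of the 15 other genes listed for zinc and iron handling, Tfrc alone had a symbol, and this transferrin receptor rose by 1.24 ± 0.11 at the high dose and by 0.37 ± 0.11 at the low dose.

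Slc26a6, an anion exchanger for chloride, oxalate and bicarbonate, had the largest rise. It was at 87.5 to 221.2 normalised counts (median 143.9) in vehicle livers, 120.2 to 271.0 (median 185.2) at the low dose and 155.4 to 358.8 (median 252.3) at the high dose, with 22 of 28 high-dose livers above the highest vehicle liver. The difference was 0.34 ± 0.07 at the low dose (adjusted p = 6.76e-05) and 0.74 ± 0.07 at the high dose (adjusted p = 4.27e-16). It passed the fold threshold in cohort C (1.03), though not without the liver that stood apart (0.93), and that difference from cohort A was not called (0.15 ± 0.19, adjusted p = 0.97).

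Slc29a3, the lysosomal nucleoside transporter ENT3, rose in the same way. It was at 232.7 to 437.1 normalised counts (median 322.2) in vehicle livers, 265.1 to 572.2 (median 403.1) at the low dose and 355.8 to 629.5 (median 505.0) at the high dose. Of the 28 high-dose livers, 24 were above the highest vehicle liver. The difference was 0.34 ± 0.06 at the low dose (adjusted p = 3.25e-06) and 0.65 ± 0.06 at the high dose (adjusted p = 2.40e-16).

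Of the remaining members, Slc35e3 (0.45 ± 0.06) and Slc35a4 (0.24 ± 0.05), both of the nucleotide-sugar transporter family, and Slc38a6 (0.43 ± 0.06), of the neutral amino acid transporter family, rose at the high dose. Slc12a7, the potassium-chloride cotransporter KCC4, was at -0.31 ± 0.07 and Slc15a4, the lysosomal histidine and peptide transporter, at -0.19 ± 0.04. Slc34a2, the phosphate cotransporter NaPi-IIb, was at -0.48 ± 0.20, and Slc38a2, the amino acid transporter SNAT2, was at -0.17 ± 0.13 and did not pass. Slc34a2 had the largest ratio of highest to lowest vehicle liver among the members, from 306.3 to 8384.1 normalised counts, and the lowest of these was the liver that stood apart. In kidney its pooled standard deviation was 0.21 on the log2 scale, against 0.82 in liver.

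Within the 4 necropsy dates, 16 of the 23 members kept the sign of their high-dose difference and 7 did not. Of these 7, Slc38a2 had not passed (-0.69 to 0.31) and the other 6 had passed the adjusted p without the fold threshold. Slc34a2 was at -0.74, 0.51, -0.89 and 0.07 on dates 1 to 4. The ranges were -0.57 to 0.11 for Slc12a7, -0.62 to 0.26 for Slc39a14, -0.55 to 0.07 for Slc25a35, -0.49 to 0.05 for Slc25a33 and -0.03 to 0.22 for Slc30a5. The 6 members called past the fold threshold were among the 16.

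At the low dose 0 of the 23 members were called with the fold threshold, by edgeR and by DESeq2, against 6.26% of all genes, and 12 members and 33.3% of all genes were at an unadjusted p under 0.05. Without that threshold 9 members passed, against 28.4% of all genes, 17.9% higher and 10.5% lower. The 6 that rose were Slc29a3, Slc26a6, Slc35e3 (0.21 ± 0.06), Slc39a6 (0.17 ± 0.07), Slc48a1 (0.15 ± 0.05) and Slc38a6 (0.14 ± 0.06), and the 3 that fell were Slc19a2, Slco5a1 and Slc25a33 (-0.24 ± 0.10). On library totals this split was 10 higher and 1 lower, the latter being Slc19a2 (-0.18), against 40.2% of all genes, 38.2% higher and 2.03% lower. Without the liver that stood apart, Slc38a6 (0.13), Slc39a6 (0.14) and Slc25a33 (-0.17) did not pass. With the litter as a block, Slc38a6 did not pass either. Within dates, Slc25a33 (-0.51 to 0.10) was the 1 of the 9 whose sign turned.

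Between the low and the high dose, 5 members were called, all lower (Slc1a2, Slc25a48, Slc19a2, Slc9a3r1 and Slco5a1), against 15.9% of all genes and 4.99% lower. Without the fold threshold 20 members passed, 8 higher and 12 lower, against 64.8% of all genes. On library totals 2 members were called, both lower (Slc1a2 and Slc25a48), against 23.8% of all genes and 2.44% lower. The split without the fold threshold was then 13 higher and 7 lower, against 67.8% and 9.35% of all genes. Slc45a3 lay just under the fold threshold, at -0.96 ± 0.16. Slc38a2 did not pass at either dose against vehicle. With TMM it was lower at the high than at the low dose by 0.45 ± 0.13 (adjusted p = 0.0017), a sign that turned on library totals. On that scale Slc38a2 was higher than vehicle at both doses, by 0.43 (adjusted p = 0.0096) at the low and 0.47 (adjusted p = 0.0013) at the high dose.

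The second question was whether the response to CCl4 depended on ancestry. Within cohorts, against the cohort's own vehicle group, the high dose gave 6 member calls in A, 6 in B, 7 in C and 6 in D, against 21.7%, 26.4%, 21.7% and 22.6% of all genes. Slc1a2, Slc25a48, Slc19a2 and Slco5a1 were called in all 4 cohorts. Slc45a3 was called in 3, with values from -1.91 in A to -0.98 in D, and Slc9a3r1 in 3, with -1.30 in A and -0.98 in B. The low dose gave 0 member calls in each cohort by edgeR and by DESeq2, against 3.7%, 3.65%, 4.46% and 4.25% of all genes, with 5, 3, 4 and 3 members at an unadjusted p under 0.05 beside 15%, 14.8%, 22.1% and 14.8% of all genes.

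No member had an interaction of ancestry with dose at an adjusted p under 0.1, in 8 contrasts with edgeR or with DESeq2. For the low dose against the F0 treatment 0.716% of all genes were called, and 0 members. In the other 7 contrasts 0% of all genes were called. At an unadjusted p under 0.05 there were 0 members in 7 of the contrasts, where 2.36% to 6.23% of all genes were, and 3 members for cohort D against A at the high dose, where 8.25% of all genes were: Slc45a3 (0.93 ± 0.46), Slc12a7 (-0.48 ± 0.19) and Slc26a6 (-0.43 ± 0.19), at adjusted p values of 0.60, 0.52 and 0.56. The 95% interval of the Slc45a3 difference reached from 0.02 to 1.84. These counts are not independent of how the members were chosen, since 22 of them were listed for an F0 effect fitted over all doses in the same livers, a choice that favours F0 differences alike across doses, and 6 of the 8 contrasts involve F0. The median absolute change for cohort C against A at the low dose was 0.10 over the members and 0.21 over all genes. For members chosen in this way the contrasts with F0 are a description, and the question is not answered by them.

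The F1 sire's treatment was tested beside F0 and dose, and 0 of the 23 members were called in liver by edgeR and by DESeq2, against 0.2% of all genes, with 7 members and 10.3% of all genes at an unadjusted p under 0.05. The estimates lay between -0.22 for Slc25a33 and 0.34 for Slc34a2. Slco5a1 had the lowest p, at 0.24 ± 0.07 (adjusted p = 0.21). Without the second necropsy date, Slco5a1 (0.32, adjusted p = 0.091) and Slc29a3 (0.19, adjusted p = 0.086) passed. The share of all genes called in that fit is not given, so these calls are not a result about the members. In kidney 0 of 22 members were called for F1 by either tool against 0% of all genes, with Slc15a4 alone and 6.67% of all genes at an unadjusted p under 0.05 (-0.11 ± 0.05, adjusted p = 0.71).

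The F0 grandsire's treatment chose 22 of the members, and their liver differences are a description. In the fit of all 83 livers beside F1 and dose they ran from -0.66 for Slc25a32 to 0.55 for Slc34a2, and 9 were positive. The larger negative differences were those of Slc25a32, Slc1a2 (-0.55), Slc45a3 (-0.38) and Slc38a2 (-0.29), and the larger positive ones those of Slc34a2, Slc19a2 (0.44), Slc25a48 (0.39), Slco5a1 (0.30) and Slc25a42 (0.30). The smallest were those of Slc15a4 (-0.09), Slc30a5 (-0.10) and Slc9a3r1 (-0.10). Genes outside the study's lists were not named here, so members just outside the lists are not given. 

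Within necropsy dates the F0 differences of 16 of the 22 members kept their sign and those of 6 did not. The genes were listed for an F0 difference in these same livers, so kept signs follow in part from that choice. The values by date are a description. Slc45a3 was at 0.24, -0.65, 0.11 and -0.61 on dates 1 to 4, and Slc38a2 at 0.18, -0.71, 0.03 and -0.44, so neither kept its sign over the dates. The other members with both signs were Slc25a42 (-0.01 to 0.45), Slc25a35 (-0.01 to 0.30), Slc35e3 (-0.34 to 0.06) and Slc9a3r1 (-0.40 to 0.11). Slc1a2 was at -0.72 and -0.76 on dates 1 and 2 and at -0.11 and -0.07 on dates 3 and 4. Slc25a32 was lower with a treated grandsire on all 4 dates, from -0.73 to -0.29, and Slc19a2 higher on all 4, from 0.21 to 0.53. Date 3 held the fewest livers.

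**Figure D3:**
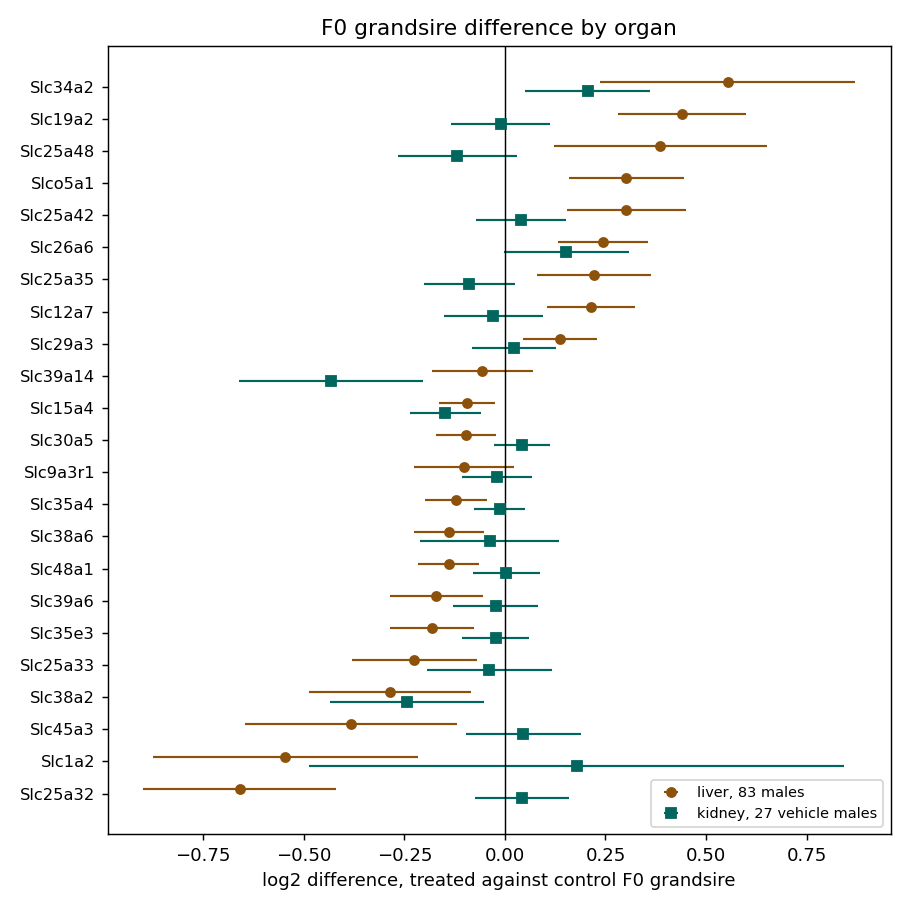
Log2 difference (x axis) between males with a treated and a control F0 grandsire for each member, in 83 livers (circles) and 27 vehicle kidneys (squares), with 95% intervals from the fitted standard errors. The liver values chose 22 of the members and the kidney value chose Slc39a14, so these points are descriptive, and Slco5a1 has no kidney value.

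A few livers carried much of the spread in Slc25a32, Slc45a3 and Slc38a2, a pattern noticed after the values were seen. The 6 livers highest in Slc25a32 were also the 6 highest of 83 in Slc45a3. In Slc25a32 they were at 3125.1 (cohort B, vehicle), 2720.6 (B, low dose), 2147.7 (A, vehicle), 2140.4 (A, low dose), 1985.3 (A, vehicle) and 1764.2 (A, vehicle), and the next liver was at 1192.6. In Slc45a3 the same livers, in that order, were at 1669.2, 945.9, 1016.3, 1080.2, 1500.4 and 1217.8, and the next liver was at 744.4. Slc38a2 was at 7624.3, 16791.0, 5174.2, 9756.2, 5491.6 and 6376.7, which includes 4 of the 6 highest livers for that gene. All 6 livers belonged to cohorts A and B, whose F0 grandsires were untreated, to the vehicle and low-dose groups, and to dates 2 and 4, and they came from 5 litters. Slc25a32 and Slc45a3 were listed for being lower with a treated grandsire, so high values in cohorts A and B are part of what chose them. The liver at 1192.6 was the cohort C vehicle liver that stood apart, which had a treated grandsire and the lowest Slc34a2 of the 83. In the 6 livers, in the same order, Slc34a2 was at 381.0, 779.7, 653.8, 1174.7, 1887.4 and 1240.5. The liver at 1887.4 ranked 48 of 83 for that gene. After subtracting group means, Slc25a32 had a correlation of 0.59 with Slc45a3 over the 83 livers, 0.54 with Slc25a33 and -0.51 with Slc34a2, as a description of libraries that share dates and litters.

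**Figure D4:**
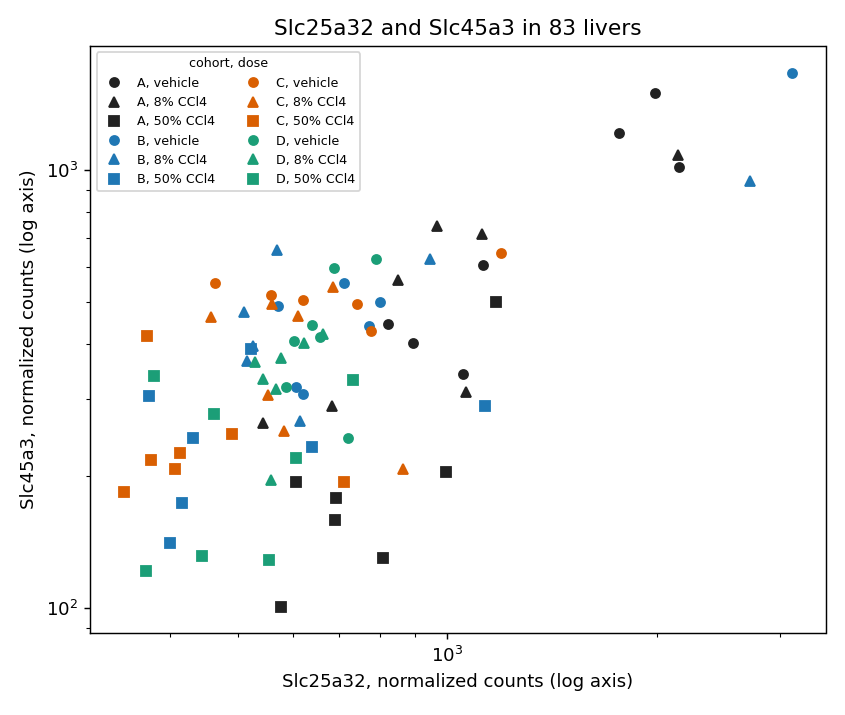
Normalised counts of Slc25a32 (x axis) and Slc45a3 (y axis, both log axes) in the 83 livers, 1 point per liver, with colour for the cohort and shape for the dose. The 6 points at the upper right, at or above 1764.2 in Slc25a32 and 945.9 in Slc45a3, are vehicle and low-dose livers of cohorts A and B.

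The F0 difference was also compared in the kidneys of the vehicle males, for the 21 of the 22 genes of the liver list that had enough counts. The study's kidney F0 list, made from the same libraries, held none of the 22, so the count is not independent of that list. None was called for F0 in kidney by edgeR or DESeq2, against 0.0109% of all genes, with 3 members and 8.7% of all genes at an unadjusted p under 0.05. These were Slc15a4 (-0.15 ± 0.05, adjusted p = 0.34), Slc34a2 (0.21 ± 0.08, adjusted p = 0.47) and Slc38a2 (-0.24 ± 0.10, adjusted p = 0.49). Slc25a32 was at 0.04 ± 0.06 in kidney, with a 95% interval from -0.07 to 0.16, and Slc19a2 at -0.01 ± 0.06, with an interval from -0.13 to 0.11. The kidney interval of Slc1a2, from -0.49 to 0.84, was wide, and the gene had 12 counts at most in a kidney.

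Slc39a14, the member from the kidney list, was at 419.7 to 924.8 normalised counts (median 680.2) in the kidneys of cohort A and 466.4 to 839.7 (median 521.7) in cohort B. It was at 299.7 to 544.3 (median 472.9) in cohort C and 402.2 to 576.5 (median 469.2) in cohort D. The ranges of the 4 cohorts overlapped, and the F0 difference was -0.43 ± 0.12, given as a description. In liver the F0 difference was tested for this gene and was not called (-0.06 ± 0.06, adjusted p = 0.70, with an interval from -0.18 to 0.07), against 8.93% of all genes. The study's liver F0 list, made from the same livers, did not hold the gene, so this value is not independent of the choice. Vehicle livers ranged from 5379.9 to 16004.7, with cohort medians of 11847.9 in A, 11767.9 in B, 11356.9 in C and 11586.7 in D.

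The last comparison set liver against kidney in the 27 vehicle males. Of the 23 members, 11 were called, 5 higher in liver and 6 higher in kidney, against 46.5% of 19292 genes, 19% higher in liver and 27.6% lower. Organ and library preparation cannot be told apart, since each library held RNA of 1 organ. Scaled to library totals, the median of all genes was -1.02 in place of -0.06, and the calls were 5 higher in liver and 9 higher in kidney, against 10.3% and 50.5% of all genes. Without the fold threshold all 23 passed with TMM, 14 higher and 9 lower in liver, against 85.5% of all genes (40.7% higher and 44.8% lower), and the split was 5 and 17 on library totals, against 16.3% and 75% of all genes.

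Slc39a14 was a liver gene among these members, with a median of 67.7 TPM in liver (18.1 to 87.5) and 4.57 in kidney (2.59 to 7.86), a difference of 4.54 ± 0.10 (adjusted p = 1.49e-28). Slc19a2 was at 54.1 TPM in liver and 12.3 in kidney (2.90 ± 0.08) and Slc25a32 at 10.2 and 4.44 (2.21 ± 0.13). Slc1a2 was at 8.28 TPM in liver (3.30 to 16.9) and 0.208 in kidney (0.0547 to 0.592), with 136 counts over all 27 kidneys against 5417 over the livers (5.69 ± 0.21). Slco5a1 had 20 counts over the 27 kidneys, 14 of them at 0 and the highest at 5, against 2859 over the livers with at least 62 in each, and no fold is given. These 5 were the members higher in liver past the threshold, and in TPM each was higher in liver in all 27 males. Slco5a1 entered the test through its liver counts alone, since its counts in no kidney group added up to more than 10. Its organ call is thus a description.

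On the kidney side, Slc29a3 was at 46.0 TPM (34.1 to 53.5) against 2.12 in liver (0.947 to 2.91), a difference of -3.67 ± 0.05 (adjusted p = 3.04e-33). Slc25a35 was at 17.2 TPM in kidney (11.8 to 22.4) against 1.39 in liver (0.549 to 2.10), with -2.87 ± 0.07 (adjusted p = 7.34e-27). Neither gene's ranges overlapped between organs. Slc35a4 (-1.56 ± 0.04), Slc9a3r1 (-1.41 ± 0.05), Slc45a3 (-1.18 ± 0.14) and Slc25a48 (-1.16 ± 0.07) were also higher in kidney past the threshold. On library totals alone, Slc48a1 (-1.72), Slc12a7 (-1.30) and Slc35e3 (-1.14) were past it as well. In TPM each of these was higher in liver in 0 of the 27 males. Of the 6 members called lower at the high dose, 3 were higher in kidney and 3 in liver.

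By TPM, which compares genes per length, the order in vehicle liver began with Slc9a3r1 (median 86.9), Slc39a14 (67.7) and Slc19a2 (54.1), whose ranges overlapped from one to the next. Slc38a2 (26.3), Slc25a42 (24.7), Slc30a5 (18.1), Slc48a1 (18.0), Slc34a2 (14.5), Slc12a7 (11.1) and Slc25a32 (10.2) followed. The order then ran through Slc25a48 (8.30), Slc1a2 (8.28), Slc15a4 (8.18), Slc35a4 (8.08), Slc35e3 (7.23), Slc25a33 (7.16) and Slc45a3 (4.19), neighbours that did not differ beyond their ranges. Lowest were Slc38a6 (2.33), Slc39a6 (2.13), Slc29a3 (2.12), Slc25a35 (1.39), Slc26a6 (0.992) and Slco5a1 (0.966). In kidney Slc9a3r1 was again first (410.2), followed by Slc48a1 (56.7), Slc29a3 (46.0), Slc35a4 (42.7) and Slc38a2 (40.1), so Slc29a3 moved from position 20 in liver to 3 in kidney and Slc39a14 from 2 to 17.

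**Figure D5:**
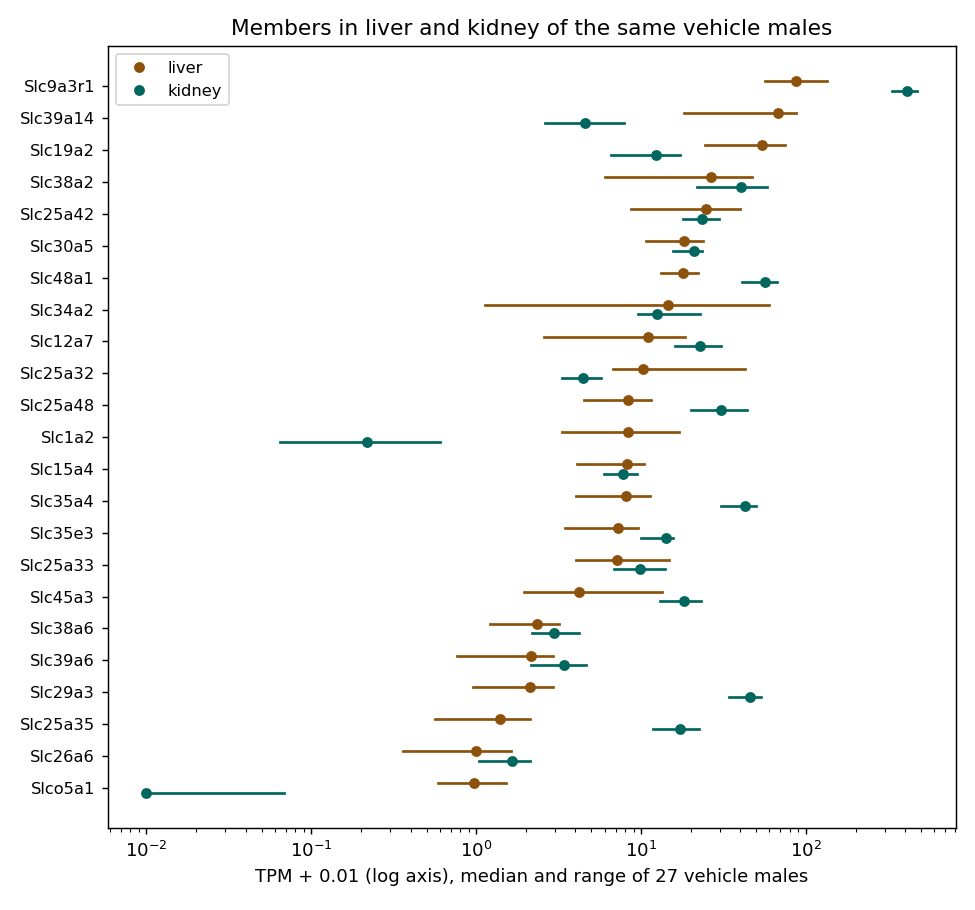
TPM plus 0.01 (x axis, log scale) of each member in liver and kidney of the 27 vehicle males, with a point at the median and a line over the range, ordered by the liver median. Slc39a14, Slc19a2, Slc25a32, Slc1a2 and Slco5a1 lie to the right in liver, and Slc29a3 and Slc25a35 are the farthest to the right in kidney relative to liver.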

How the data were processed

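RNA of 83 livers and 27 kidneys was measured with stranded poly(A) libraries. The authors estimated transcript abundance with Salmon 0.14.0 (submitters' processing notes) against Ensembl transcripts and summed it per gene. The deposited values are the authors' estimated counts per gene, which they rounded but did not scale, with average transcript lengths per gene and library. Symbols came from the study's gene lists alone, and cohort, dose and organ from the labels; necropsy dates and litters came from the study's pedigree.

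A gene entered the tests when its counts in some group added up to more than 10. Counts were scaled with TMM and fitted with edgeR 4.0.16's quasi-likelihood test in R 4.3.3, with Benjamini-Hochberg adjustment over all genes tested. Dose effects were contrasts of 12 group means averaged over cohorts, F0 and F1 effects were terms beside dose, and the organ term was fitted with the male as a block and transcript lengths as offsets. Differences are log2 values ± SE, and intervals are the estimate ± 1.96 SE. TPM was computed from counts and lengths.

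The members, role groups and lists were chosen with earlier results of these data known. All members are named. The lowest, median and highest values were given for the 4 largest falls called at the high dose (no rise was called), the 2 largest organ differences in each direction, Slc39a14, and members called for F1, an interaction or kidney F0 (none); dose values of Slc29a3 and values of Slc9a3r1, Slc26a6, Slc25a32, Slc45a3, Slc38a2 and Slc34a2 were added after they were seen. Of 5 lists of other genes (9, 15, 9, 14 and 5 genes), 2 had a gene with a symbol, 1 each (Tfrc and Glul), and the biliary, stellate, lymphocyte and proliferation markers had none, so the rest of the family is not analysed here. The scripts were tested on simulated data. Alternatives were DESeq2 1.42.0, limma 3.58.1 with a correlated litter block, other scalings, filters, thresholds, date and litter terms, and leaving out dates or 1 library; library totals, and the removal of the fold threshold within cohorts and between organs, were added after seeing the data. The pedigree ties males to litters, and littermates at different doses had a mean residual correlation of 0.0795 (68 pairs) against 0.017 for other males on the same date; liver and kidney came from the same males. The p-values measure the spread between these males, some of which share sires.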

Additional observations from a re-analysis of the deposited data

Results flagged for a closer look

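In groups of 6 or 7 males, 18 of 204 member and group combinations (8.82%), over 13 members examined, held 1 male far from the others by Dixon's test. Chance gives about 1 in 20 for members chosen without regard to their values. The 13 included Slc25a32, Slc45a3, Slc38a2 and Slc34a2, added after their values were seen, and some males recur. The share is therefore a description and no test against chance. Values are normalised counts, followed by the range of the others in the group.

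Slc25a32 accounted for 5 of them, each a high value. Liver values were 3125.1 in cohort B vehicle (571.4 to 799.5), 2720.6 in B low dose (510.5 to 945.9), 1131.6 in B high dose (373.4 to 639.5), 2140.4 in A low dose (544.8 to 1121.5) and 710.4 in C high dose (343.3 to 490.4). Slc45a3 was high in 3 livers, at 1669.2 in B vehicle (308.3 to 551.9), 500.0 in A high dose (100.7 to 204.7) and 417.2 in C high dose (184.0 to 249.3). The B vehicle liver was the same male in both genes. Slc38a2 was at 16791.0 in the B low-dose liver that was also high in Slc25a32 (3130.9 to 6227.5), and at 2665.6 in 1 kidney of cohort B (4292.1 to 5307.0).

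Slc34a2 was high in 1 liver at each dose of cohort D, at 8384.1 in vehicle (1682.5 to 3246.6), 5225.2 at the low dose (1979.8 to 3202.4) and 6760.8 at the high dose (1615.8 to 2317.0), in males from 3 different litters. Slc25a48 was low in 1 vehicle liver of cohort A, at 149.3 (225.1 to 282.5). Slc25a35 was at 85.0 in 1 high-dose liver of cohort A (44.4 to 57.4) and at 543.2 in 1 kidney of cohort A (709.6 to 784.7). Slc26a6 was at 226.7 in 1 low-dose liver of cohort A (154.3 to 177.9), and Slc9a3r1 at 14971.8 in 1 kidney of cohort C (12670.4 to 13494.1).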

How the results depend on the processing

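The counts of members called kept within 1.5 times of the values given, and the liver F0 value of Slc39a14 its direction and side, under 134 alternatives, and 7 moved a count further. These were the removal of the fold threshold (9 members at the low dose, 22 at the high dose, 20 between the doses, 23 between organs and 75 over the 8 dose contrasts within cohorts, the last 2 added after seeing the data), library totals for high against low dose (2) and the F1 effect without the second necropsy date (2, Slco5a1 and Slc29a3). The cause was not tested. Beside the 75, the shares of all genes in cohorts A to D were 6.28%, 6.44%, 10.3% and 7.4% at the low dose. At the high dose they were 49.2%, 55%, 47.9% and 51.1%. With the litter as a block the counts stayed at 0 for the low dose, 6 for the high dose, 5 between the doses and 0 for interactions, and with a correlated litter block at 0 for F1; the block ended the calls without a fold threshold of Slc25a33 (-0.18) and Slc25a35 (-0.19) at the high dose and Slc38a6 (0.13) at the low dose, and no other. Without the animal block 12 members were called between organs in place of 11. For that fit and the one without the second date, the share of all genes is not given. Library totals reversed the high-dose values of Slc12a7 (0.29), Slc15a4 (0.44), Slc25a33 (0.40), Slc25a35 (0.33), Slc34a2 (0.13, which did not pass) and Slc39a14 (0.38), and that of Slc38a2, which had not passed with TMM, to 0.47. For single members 558 values kept their side of the threshold, 59 lost it and 6 reversed. DESeq2, its size factors and the absence of a filter left 6 high-dose and 11 organ calls. Low counts limit the precision of Slc1a2 and Slco5a1 in kidney.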
